A study of Mus musculus with 6 samples.

Results

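The genes described here are 6 ligands and 1 receptor of the CC chemokine family, Ccl3, Ccl4, Ccl5, Ccl17, Ccl20, Ccl22 and Ccr1. They were chosen by name, with earlier results of these data known. Their probes were found through the RefSeq transcript that each probe is designed against. All 7 were on the array, with 8 of its 56605 probes, since Ccl4 had 2 probes and each other gene 1. Of the 7 genes, 6 passed the detection filter and stood among the 32450 genes and unnamed probes tested, and Ccl22 did not pass it. Lung RNA came from male C57BL6 mice aged 10 weeks, which were fasted for 16 h and then injected intraperitoneally with 20 mg/kg LPS, a bacterial endotoxin. At 3 h and 24 h after LPS, 3 mice were given recombinant antithrombin, the plasma inhibitor of thrombin, at 750 IU/kg, and 3 mice were given saline. Lungs were taken at 30 h, with 1 mouse on each array. Both groups had received LPS and no mouse without LPS was analysed here, so every difference is between antithrombin and saline under endotoxin.

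CC chemokines are small secreted proteins, named for a pair of adjacent cysteines, that guide leukocytes through G protein-coupled receptors on the cell surface. Ccl3 and Ccl4 encode the macrophage inflammatory proteins MIP-1 alpha and MIP-1 beta, and Ccl5 encodes RANTES, which is made largely by T cells, natural killer cells and activated macrophages. Ccl17 and Ccl22, products of dendritic cells and macrophages, share the receptor Ccr4. Ccl20, made by epithelium among other cells, acts through Ccr6, while Ccr1 is carried by neutrophils and monocytes and binds Ccl3 and Ccl5.

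Values are log2 signals in which 0 is the 75th percentile of an array, so they compare mice for 1 gene and not 1 gene with another. On each array 69.8% to 72.1% of probes were well above background, and 0 spots were saturated. The lung epithelial genes Sftpc and Scgb1a1 averaged 9.19 and 9.19 in antithrombin mice and 9.27 and 9.27 in saline mice, and all 10 lung markers examined passed the filter. Of these, 9 were lower on average in antithrombin mice and 1 was higher, beside 18486 lower and 13964 higher of all 32450 tested. Their median log2 difference was -0.10, beside -0.05 over all genes tested. Their mean log2 signal, set to 0 at the saline mean, did not overlap, at -0.18 to -0.10 in antithrombin mice and -0.04 to 0.04 in saline mice. Saline mouse 2 stood apart from its group. On the first principal component, which held 51.9% of the variance, it lay at -7.86, against -49.5 to -24.9 for the antithrombin mice and 48.3 and 62.4 for the other saline mice. Over the tested genes it correlated more closely with the antithrombin mice, at 0.991 to 0.994, than with saline mice 1 and 3, at 0.989 and 0.988. The differences of the 6 tested genes are therefore also given without it. Because this mouse lay between the groups on the first component, a fit without it has a wider gap by construction and is no separate support.

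The macrophage chemokines Ccl3 and Ccl4 were higher in all 3 antithrombin mice than in any saline mouse, and Ccl5 was lower in all 3. Ccl17, Ccl20 and Ccr1 overlapped between the groups, and Ccl22 stayed too close to background on all 6 arrays to be tested. No gene of the 7 passed the threshold after adjustment over all genes (limma, adjusted p under 0.05), where 0.00616% of all genes did, 0.00308% higher and 0.00308% lower. The unadjusted limma p was under 0.05 for 2 higher genes and 1 lower gene, beside 8.73% of all tested genes higher and 12.9% lower. The genes past that p were also the ones whose groups did not overlap, beside 10.7% of all genes with all antithrombin values above and 18.1% with all below. The median log2 difference, antithrombin minus saline, was 0.55 over the 6 tested genes and -0.05 over all genes tested. Without saline mouse 2, Ccl3 and Ccl4 were higher and Ccl5 lower at an adjusted p under 0.05 (limma), where 4.65% of all genes were higher and 5.89% lower.

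**Figure D1:**
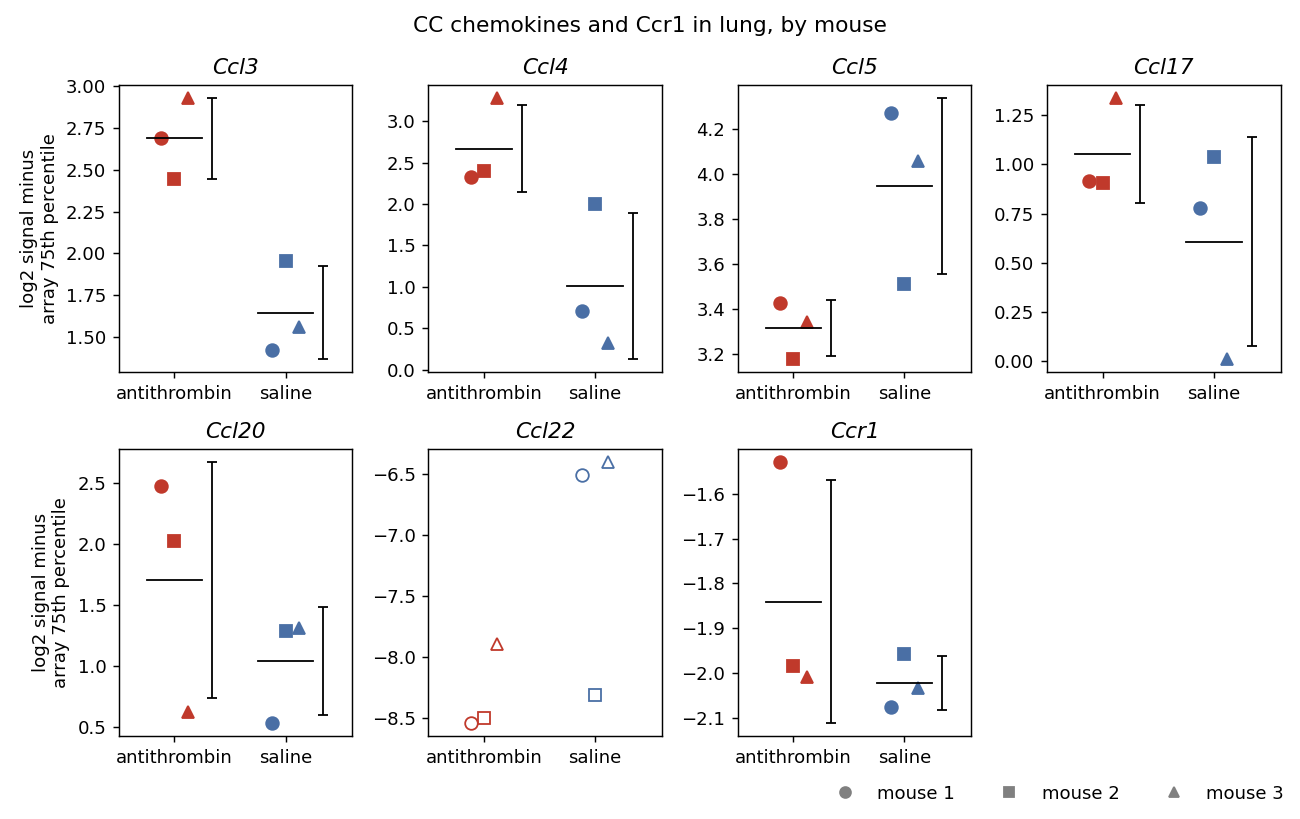
Log2 signal minus the array's 75th percentile (vertical axes, each with its own range) of the 7 genes in antithrombin mice (red, left) and saline mice (blue, right). Each symbol is a mouse, lines are group means and bars are SD (n = 3); open symbols for Ccl22 were not well above background and have no mean. The antithrombin mice lie above all saline mice for Ccl3 and Ccl4 and below them for Ccl5.

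Ccl3 measured 2.69, 2.45 and 2.93 in antithrombin mice 1, 2 and 3, against 1.42, 1.96 and 1.56 in saline mice 1, 2 and 3. The groups did not overlap, and the lowest antithrombin mouse lay 0.49 above the highest saline mouse. The difference was 1.04 (SE 0.19, 95% interval 0.59 to 1.49), a 2.06-fold higher signal, with a limma unadjusted p of 0.000986 and an adjusted p of 0.151. It ran from 0.92 without antithrombin mouse 3 to 1.20 without saline mouse 2, and in that last fit the adjusted p was 0.0281 (range over all alternatives 0.0281 to 0.353).

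Ccl4 had the largest difference and the widest spread of the genes that did not overlap. The probe used measured 2.33, 2.40 and 3.28 in antithrombin mice 1, 2 and 3, against 0.71, 2.00 and 0.32 in saline mice 1, 2 and 3. Antithrombin mouse 3 was the highest mouse, as for Ccl3, and saline mouse 2 came within 0.32 of the lowest antithrombin mouse. The difference was 1.66 (SE 0.47, 95% interval 0.55 to 2.77), or 3.15-fold, with a limma adjusted p of 0.161 and an unadjusted p of 0.00989. The second Ccl4 probe, against the same transcript, gave 2.10, 2.20 and 3.13 in antithrombin mice and 0.48, 1.62 and 0.14 in saline mice, a difference of 1.73. Both probes thus ranked the 6 mice in the same order. Without saline mouse 2 the Ccl4 difference was 2.15 (limma adjusted p = 0.0293, and 0.0293 to 0.363 over the alternatives), and without saline mouse 3 it was 1.31.

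Among 12 tested neutrophil markers 5 were higher and 0 lower by an unadjusted p under 0.05 (limma), beside 8.73% and 12.9% of all genes, and 0 passed after adjustment. Their median difference was 0.59, with 11 positive and 1 negative, beside 13964 positive and 18486 negative over all genes tested. Without saline mouse 2 there were 9 higher, where 13.5% of all genes were, and a median of 0.74. Leaving out antithrombin mouse 1 gave 2 higher, where 6.81% of all genes were, and a median of 0.49. Leaving out saline mouse 3 gave 4 higher, where 5.80% of all genes were, and a median of 0.45. The summed signal of the list overlapped, at 1125 to 1317 (array 75th percentile = 1) in antithrombin mice and 942 to 1200 in saline mice. Its mean log2 signal, which gives each marker equal weight and is set to 0 at the saline mean, did not overlap, at 0.55 to 0.67 in antithrombin mice and -0.21 to 0.41 in saline mice. Ly6g, a defining neutrophil gene, was matched to no probe by its RefSeq transcripts and has no value here, while S100a9 and S100a8, the brightest of the list, differed by 0.14 and 0.29. The sum of 14 macrophage markers overlapped, at 389 to 438 in antithrombin mice and 383 to 494 in saline mice, with 9 positive, 5 negative and a median of 0.12. Its brightest genes Chil3 and Marco differed by -0.05 and -0.54, and the 2 past that p, Adgre1 and Msr1, named after their values were seen, by 0.64 and 0.72. Of 9 monocyte markers 2 were higher and 0 lower at that p, with 8 positive, 1 negative and a median of 0.26. Their sums were 497 to 549 in antithrombin mice and 493 to 520 in saline mice. The brightest monocyte genes, Ly6c2 and Ms4a4c, differed by -0.18 and 0.28. Of the 9, 2 were higher in all antithrombin mice than in any saline mouse, as 10.7% of all genes were. Only 1, Ly6c2, was lower in all antithrombin mice, as 18.1% of all genes were. The mean log2 signal of the monocyte list, relative to the saline mean, overlapped. It was 0.23 to 0.53 in antithrombin mice and -0.24 to 0.40 in saline mice. The part of these cells in the Ccl3 and Ccl4 values was not tested, and in whole lung a change in the number of cells cannot be told apart from a change in RNA per cell.

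Ccl5 had the opposite sign. It measured 3.43, 3.18 and 3.34 in antithrombin mice 1, 2 and 3, against 4.27, 3.51 and 4.06 in saline mice 1, 2 and 3. The antithrombin mice lay close together, with an SD of 0.13 against 0.39 in saline mice, and saline mouse 2 was only 0.09 above the highest of them. The difference was -0.63 (SE 0.21, 95% interval -1.12 to -0.14), a 1.55-fold lower signal, with a limma adjusted p of 0.177 and an unadjusted p of 0.0189. Without saline mouse 2 it was -0.85 (limma adjusted p = 0.0306, and 0.0306 to 0.395 over the alternatives). The unadjusted limma p no longer passed without antithrombin mouse 2 (0.0625), saline mouse 1 (0.0576) or saline mouse 3 (0.0560).

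Markers of the lymphocytes that make Ccl5 overlapped between groups. The summed signal of 11 T cell markers was 11.3 to 12.5 in antithrombin mice and 9.74 to 14.7 in saline mice, with 0 higher and 1 lower by an unadjusted p under 0.05 (limma), beside 8.73% and 12.9% of all genes. The median difference was -0.26, with 4 positive and 7 negative, beside 13964 positive and 18486 negative over all genes tested. Saline mouse 1 was the highest mouse both for that sum and for Ccl5, while saline mouse 2 was the lowest for the sum and lay above every antithrombin mouse for Ccl5. The mean log2 signal of the list, relative to the saline mean, placed saline mouse 1 highest at 0.34 and antithrombin mouse 1 lowest at -0.37. By that measure saline mouse 2 lay at -0.17, as saline mouse 3 did. The 9 natural killer and cytotoxic granule markers summed to 28.0 to 62.2 in antithrombin mice and 24.8 to 45.7 in saline mice. Of them, 0 passed that p, 8 were positive and 1 negative, and the median was 0.19. Gzma, the brightest of them, weighs most in that sum. Their mean log2 signal relative to the saline mean overlapped too, at -0.22 to 0.91 in antithrombin mice and -0.53 to 0.28 in saline mice. The brightest T cell genes Cd4 and Thy1 differed by 0.07 and 0.29, and Cd28, the one past that p and named after its value was seen, by -0.42. The granzyme genes Gzma and Gzmb differed by 0.06 and 0.34. The part of these cells in the Ccl5 values was not tested.

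Ccl17 measured 0.91, 0.91 and 1.34 in antithrombin mice 1, 2 and 3, against 0.78, 1.03 and 0.01 in saline mice 1, 2 and 3. Saline mouse 2 lay above antithrombin mice 1 and 2, and saline mouse 3 was far below the rest. The difference was 0.44 (SE 0.28, 95% interval -0.22 to 1.10, limma adjusted p = 0.371). Leaving out saline mouse 2 gave 0.66 (limma adjusted p = 0.159) and leaving out saline mouse 3 gave 0.15. Its partner Ccl22 was close to background throughout, at -8.54, -8.50 and -7.89 in antithrombin mice and -6.51, -8.31 and -6.40 in saline mice. These values carry no fold, since neither group was well above background on any array. Dendritic cell markers, 10 of them tested, summed to 267 to 279 in antithrombin mice and 269 to 318 in saline mice, with 0 past an unadjusted p under 0.05 in either direction (limma) and a median difference of 0.02. Their brightest genes, Siglech and Cd24a, which weigh most in that sum, differed by -0.04 and -0.26. The mean log2 signal of the list, which gives each marker equal weight, overlapped too. Relative to the saline mean it was -0.02 to 0.19 in antithrombin mice and -0.07 to 0.08 in saline mice.

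Ccl20 spread most within the antithrombin group. It measured 2.47, 2.02 and 0.62 in antithrombin mice 1, 2 and 3, against 0.53, 1.29 and 1.31 in saline mice 1, 2 and 3. Antithrombin mice 1 and 2 lay above all saline mice, while antithrombin mouse 3, the highest for Ccl3, Ccl4 and Ccl17, lay below saline mice 2 and 3. The difference was 0.66 (SE 0.48, 95% interval -0.49 to 1.81, limma adjusted p = 0.438). It was 1.21 without antithrombin mouse 3, with an unadjusted limma p of 0.00655 and an adjusted p of 0.353, and 0.28 without antithrombin mouse 1. Leaving out saline mouse 1 gave 0.41, and leaving out saline mouse 2 gave 0.78. The club and ciliated cell markers, which mark airway epithelium, summed to 814 to 920 in antithrombin mice and 778 to 877 in saline mice, with 3 of 6 higher and 0 lower by an unadjusted p under 0.05 (limma), beside 8.73% and 12.9% of all genes, and a median of 0.27. Their mean log2 signal relative to the saline mean did not overlap, at 0.30 to 0.47 in antithrombin mice and -0.19 to 0.24 in saline mice. Scgb1a1 and Cyp2f2, the brightest of them, differed by -0.09 and 0.08. The 3 past that p, Scgb3a2, Tppp3 and Dnah5, named after their values were seen, differed by 1.15, 0.44 and 0.60. The part of these cells in the Ccl20 values was not tested.

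The receptor gene Ccr1 measured -1.53, -1.98 and -2.01 in antithrombin mice 1, 2 and 3, against -2.07, -1.96 and -2.03 in saline mice 1, 2 and 3. Apart from antithrombin mouse 1 the values lay within 0.12 of each other. The difference was 0.18 (SE 0.15, 95% interval -0.19 to 0.55, limma adjusted p = 0.501), and it was 0.03 without antithrombin mouse 1 and 0.21 without saline mouse 2.

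**Figure D2:**
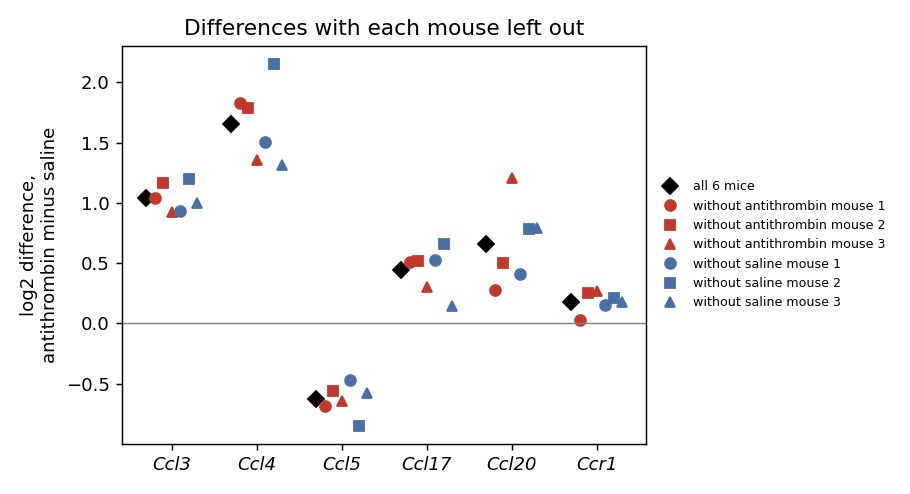
Log2 difference, antithrombin minus saline, of the 6 tested genes with all mice (black diamonds) and with each antithrombin mouse (red) or saline mouse (blue) left out; the horizontal line marks no difference. Ccl5 stays below the line and the other 5 genes above it in each fit, and Ccl20 spans 0.28 to 1.21.

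The receptors described next bind Ccl5, Ccl20, Ccl17 and Ccl22. Ccr3, the eosinophil receptor that Ccl5 also binds, was dim, at -4.63, -4.66 and -4.73 in antithrombin mice and -5.61, -5.03 and -5.39 in saline mice. Its difference of 0.67 (SE 0.16, limma adjusted p = 0.155) became 0.10 with normexp background correction, so its size rests on how the background is handled. Ccr6, the receptor of Ccl20, measured -1.79, -2.42 and -0.72 in antithrombin mice and -2.03, -1.54 and -2.90 in saline mice, with overlap and a difference of 0.51 (SE 0.50, limma adjusted p = 0.558). Ccr4, the receptor of Ccl17 and Ccl22, was too dim to be called above background with either of its probes. Whether these receptors differ from Ccr1 was not tested.

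**Figure D3:**
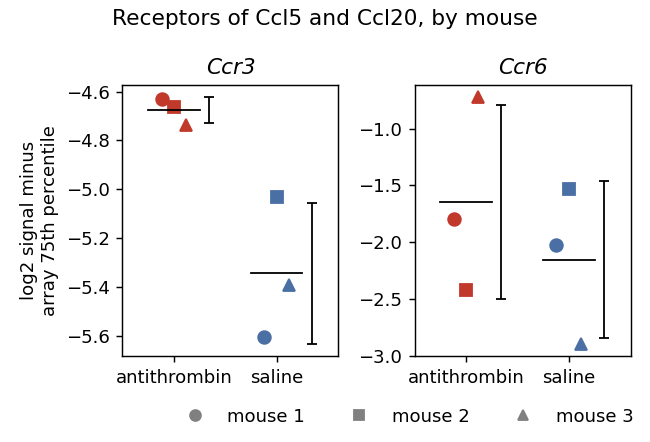
Log2 signal minus the array's 75th percentile of Ccr3 and Ccr6 in antithrombin mice (red, left) and saline mice (blue, right); symbols are mice, lines are means and bars are SD (n = 3). The groups lie apart for Ccr3 and overlap for Ccr6.

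In the rest of the CC family the ligands had positive differences and the receptors lay on both sides of 0. All 13 tested of 18 other ligands had a positive difference, with a median of 0.49, and 7 were higher and 0 lower by an unadjusted p under 0.05 (limma), beside the 8.73% and 12.9% of all genes above. Of the other 5 ligands, 3 were matched to no probe and 2 were too dim. The count of positive ligands was 13 under each background correction and scaling and 12 when all detected probes of a gene were averaged or when antithrombin mouse 1, 2 or 3 or saline mouse 3 was left out. Of 12 tested of 14 other receptors and atypical receptors, 2 were higher and 3 lower at that p, 5 were positive and 7 negative, and the median was -0.40. At an adjusted p under 0.05 (limma) there were 0 of these 25 genes, and without saline mouse 2 there were 6 ligands higher, 2 receptors higher and 2 receptors lower, beside the 4.65% and 5.89% of all genes.

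Among the ligands, the monocyte attractants Ccl2, Ccl7 and Ccl12 had differences of 1.20, 1.30 and 1.54, and the eosinophil attractants Ccl24 and Ccl11 had 1.36 and 0.85 (0.55 for Ccl11 with normexp). Ccl24 measured -0.40, -0.08 and -0.24 in antithrombin mice, against -1.98, -1.36 and -1.44 in saline mice, and the groups did not overlap. The lymph node chemokine Ccl21a had 0.90, and Ccl27a 0.49, or 0.16 with the mean of its detected probes. Ackr2, a decoy receptor that takes up inflammatory CC chemokines, measured 2.88, 2.86 and 2.61 in antithrombin mice and 3.29, 2.99 and 3.45 in saline mice, a difference of -0.46 (SE 0.16, limma adjusted p = 0.182). Ccr10 was well above background on 0 of 3 antithrombin arrays and was at least 1.67-fold lower there on the processed signal (limma adjusted p = 0.151). With normexp its difference was -0.26, a smaller change than that bound. The scavenging receptor Ackr4 had -1.05, with 1 of 3 antithrombin arrays well above background, and -0.19 with normexp.

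**Figure D4:**
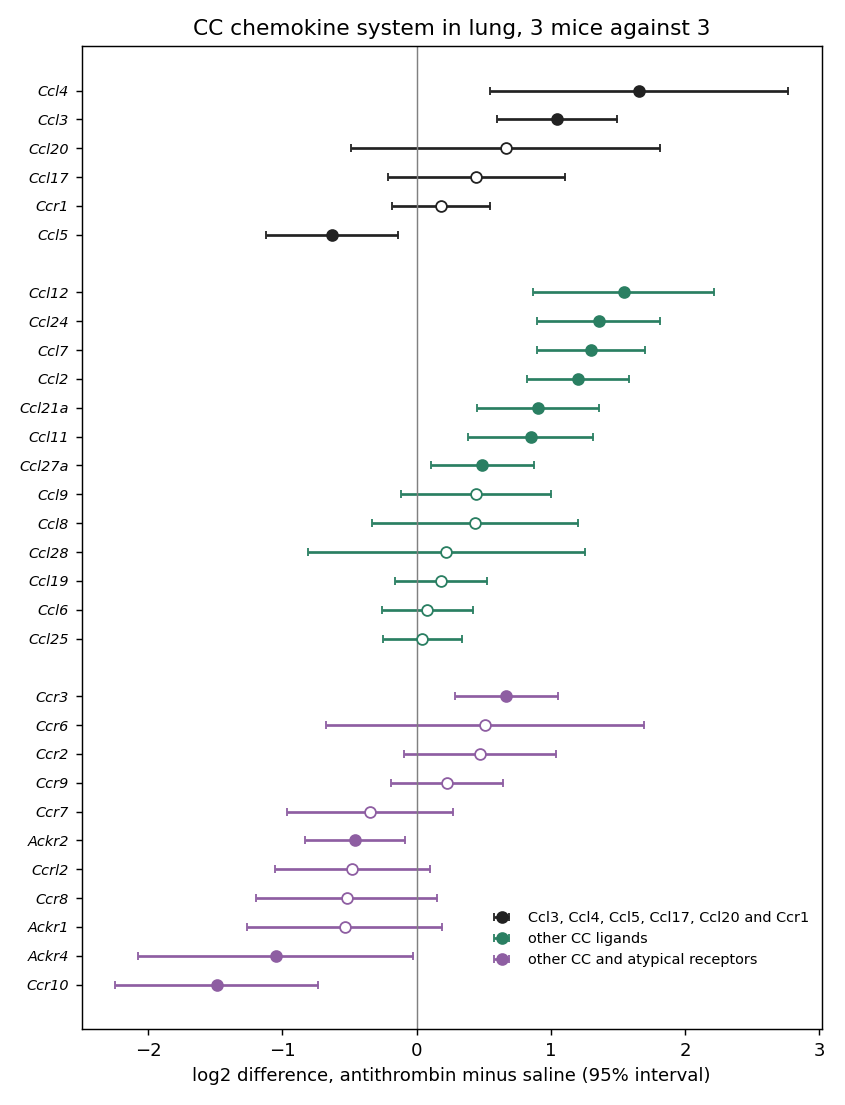
Log2 difference, antithrombin minus saline, with 95% interval (bars) for Ccl3, Ccl4, Ccl5, Ccl17, Ccl20 and Ccr1 (black), other CC ligands (green) and other CC and atypical receptors reported here (purple); filled symbols have an unadjusted limma p under 0.05. Ccl5 is the only ligand drawn to the left of 0, and the receptors fall on both sides.

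Neighbours on the chromosome did not all share a direction. In the order of the GRCm38.p6 annotation of RefSeq, Ccl5, Ccl9, Ccl6, Ccl3 and Ccl4 follow each other among the CC genes of chromosome 11. Their differences in that order were -0.63, 0.44, 0.08, 1.04 and 1.66. Ccl9 measured 5.55, 5.18 and 5.28 in antithrombin mice and 4.71, 5.40 and 4.58 in saline mice, and Ccl6 overlapped as well. The other CC cluster of the chromosome, Ccl2, Ccl7, Ccl11, Ccl12 and Ccl8, had 1.20, 1.30, 0.85, 1.54 and 0.43. Ccr1 lies on chromosome 9 among other CC receptor genes that include Ccr1l1, Ccr3 and Ccr2, of which Ccr1l1 was well above background on 0 of 6 arrays and Ccr3 and Ccr2 had 0.67 and 0.47.

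Many CC chemokine genes are switched on through NF-kB, so the 250 bases before each transcription start were searched on both strands for its consensus motif. RefSeq windows of build GRCm38.p6 were matched by symbol for 5 of the 7 genes, Ccl3, Ccl17, Ccl20, Ccl22 and Ccr1. The consensus was found in 1 of the 5 windows, that of Ccl20, from 80 to 71 bases before the start, and 3.90% of 32851 windows hold it. Over the whole CC family 6 of 28 genes with a window had a match, a count of genes, whereas the 3.90% is a share of windows. The windows of Ccl20 (chr1:83116516-83116765, plus strand) and Ccl3 (chr11:83649379-83649628, minus strand) are given because the first holds the match and Ccl3 had the smallest p of the 7 genes. Capitals mark the match, which reads on the strand opposite to the gene.
Ccl20: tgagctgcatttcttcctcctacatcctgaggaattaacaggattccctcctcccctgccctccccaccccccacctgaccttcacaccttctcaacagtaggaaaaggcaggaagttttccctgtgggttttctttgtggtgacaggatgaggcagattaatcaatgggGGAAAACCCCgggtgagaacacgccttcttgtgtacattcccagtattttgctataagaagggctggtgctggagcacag
Ccl3: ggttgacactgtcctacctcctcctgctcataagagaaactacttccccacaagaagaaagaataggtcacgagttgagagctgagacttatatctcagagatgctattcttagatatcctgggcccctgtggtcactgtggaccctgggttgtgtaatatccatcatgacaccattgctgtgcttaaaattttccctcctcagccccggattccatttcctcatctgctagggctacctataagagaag

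The genes differed among themselves in their profiles over the mice. Profiles were compared by the root mean square difference over the 6 arrays after each gene was centred on its own mean. The values were not scaled, so this distance reflects how much a gene varied as well as which mice were high. Ccl5 and Ccr1, whose differences between groups had opposite signs, lay 0.50 apart. Ccl3 and Ccl17 were the closest pair at 0.41 log2 units, and Ccl4 and Ccl5 the farthest at 1.38. Ccl3 and Ccl4 lay 0.52 apart, and Ccl4 varied more among mice of the same group. Ccl20 was 0.72 from Ccl3, 1.12 from Ccl4 and 0.84 from Ccl17.

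Among 17505 other named genes, those nearest to Ccl3 by this measure were Padi4 (0.07, also on the neutrophil list), Wfdc13 (0.11) and Cfap161 (0.12). Nearest to Ccl4 were Prok2 (0.13), 2810004N23Rik (0.16) and Dleu2 (0.16), with differences between groups of 1.67, 1.45 and 1.68. Ccl5 was followed most closely by Fam89a (0.07), Lrrc63 (0.07) and Scel (0.08), with differences between groups of -0.63, -0.62 and -0.59. Ccl17 lay nearest Chordc1 (0.07), Opn1mw (0.08) and Trim40 (0.10). Ccr1 lay nearest C1qb (0.05, also on the macrophage list), Impa2 (0.06) and Trpm2 (0.06). Nearest to Ccl20, though farther away, were Prph (0.18), Tmem45b (0.23) and Sostdc1 (0.23).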

How the data were processed

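RNA from the lungs of 6 mice was measured on one-colour Agilent arrays, and groups and mouse numbers came from the sample titles. The titles number the mice, n is the number of mice, and the number of arrays limits the precision. All arrays lay on 1 slide scanned on 1 date.

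Spot intensity values in the deposited scanner files come from version 10.7.3.1 of Agilent Feature Extraction, per the file headers, while the submitters' processing notes name 9.1. The processed signal is background-subtracted and not scaled between arrays. A deposited table of log2 values covers the same probes. Its differences between arrays equalled those of the log2 processed signal within 0.01 for 100% of probes, after a shift per array. Its column medians ran from -0.04 to 0.08, the constant per probe is of unknown origin, and how its arrays were scaled is not given in the sources used here.

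Control and outlier spots were left out, which removed no spot of the 7 genes, and log2 processed signals were scaled to the 75th percentile of each array's non-control probes. Accessions were matched without version to RefSeq transcripts of GRCm38.p6, naming 32994 of 56605 probes and leaving 23611 unnamed. The array design names another build (mm9), so no probe coordinates are given, and those of the promoter windows are RefSeq's in GRCm38.p6. The brightest probe stood for each gene, and testing required detection (well above background) on 3 or more arrays. Differences, antithrombin minus saline, were fitted on the whole table in limma 3.58.1 (lmFit, eBayes; R 4.3.3). Tests were two-sided, p-values were adjusted by Benjamini-Hochberg, and the threshold was 0.05. The fit was tested on simulated data. A lower bound sets the brighter group's mean against a floor for the dim group, on each array the lowest signal well above background or the probe's signal if that is higher. Figures were drawn with matplotlib 3.10.9.

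The 7 genes, the marker lists and the tests were chosen with earlier results of these data known. Named genes are the 7, the other CC genes with an unadjusted p under 0.05, the main receptors of the ligands, the 2 brightest markers of each list described, and the 3 genes nearest in profile. The values of 1 gene that this rule names are not reported here. Adgre1, Msr1, Cd28, Scgb3a2, Tppp3, Dnah5 and the CC neighbours on chromosomes 9 and 11 were named after their values were seen. Ly6g was named as a defining marker without a value.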

Additional observations from a re-analysis of the deposited data

How the results depend on the processing

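Across 16 alternatives, the log2 differences of all 6 tested genes kept their sign. Ccl17, Ccl20 and Ccr1 did not pass the adjusted threshold in any of them. For a gene with 1 probe, the filters, the averaging of probes, the variance setting and the blocks could not change the difference. The deposited values are the same signal apart from a shift per array. The sign was thus open to change mainly with normexp, quantile normalisation, median scaling or a mouse left out. Leaving out 1 mouse at a time gave 0.92 to 1.20 for Ccl3, 1.31 to 2.15 for Ccl4 and -0.85 to -0.47 for Ccl5, and only without saline mouse 2 did these 3 pass the adjusted threshold, so that the counts of genes past it ran from 0 to 2 higher and from 0 to 1 lower. The counts at an unadjusted p under 0.05 ran from 2 to 3 higher, the third being Ccl20 without antithrombin mouse 3, and from 0 to 1 lower. Over these fits 5.62% to 13.5% of all genes were higher and 7.16% to 18.3% lower at that p. In the same fits the other CC genes lower at that p numbered 1 to 5, against 3 with all mice, and all tested genes past the adjusted threshold numbered 0 to 1510 higher and 0 to 1911 lower, against 1 and 1. The gene count higher was 0 with normexp, quantile normalisation, median scaling, no filter, detection on all arrays, a trended and robust variance, the array row as a block or the mouse number as a replicate block. With the replicate block 0 genes were lower too and 1 other CC gene was lower at the unadjusted p, as 1 was with detection on all arrays, where fewer genes were tested. The cause of the other shifts was not tested. The replicate block left no call on the 7 genes changed, with limma adjusted p values of 0.302 for Ccl3, 0.302 for Ccl4 and 0.302 for Ccl5. Mouse numbers were not used as pairs in the main fit. Deviations of same-numbered mice from their group means correlated at -0.01, -0.16 and -0.28. With 3 mice in each group these values cannot settle whether the numbers pair the mice. Normexp on mean pixel signals was not run, since the files used here hold median signals. Signal over background limits Ccl22 and Ccr4, which could not be tested, and the dim Ccr3, Ccr10 and Ackr4, whose differences were 0.10, -0.26 and -0.19 with normexp.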
